A study of Mus musculus with 8 samples.

Results

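The matrix metalloproteinases (MMPs), the ADAMTS proteases with the ADAMTS-like proteins, and the tissue inhibitors of metalloproteinases (TIMPs) were followed in mouse bone marrow stromal cells that had been kept in bone-forming medium. The members were the genes whose symbol starts with Mmp or Timp and a digit, or with Adamts, and 41 of the 19460 genes in the deposited table met this rule. They were 18 MMP, 15 ADAMTS, 5 ADAMTS-like and 3 TIMP genes. A further 10 genes of the annotation with such symbols (Mmp1a, Mmp1b, Mmp7, Mmp21, Mmp24, Adamts8, Adamts13, Adamts19, Adamts20 and Timp4) were not analysed here.

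The study compared 4 Lgr6-null with 4 wild-type libraries of polyadenylated RNA, all on a C57BL/6 background, to learn which signaling goes with Lgr6, a receptor for R-spondins, during osteogenesis. Lgr6-null cells were homozygous for Lgr6-GFP-ires-CreERT2, a knock-in that places a reporter and a tamoxifen-dependent recombinase at Lgr6. Both genotypes received the same MEM with 10% FBS for 10 days, made osteogenic with β-glycerophosphate at 4 mM and ascorbic acid at 50 µg/mL. The labels do not say how old the mice were, which sex they had or whether each library is another animal, so p-values measure the spread between libraries, which may be technical. Libraries carry the numbers of the table's columns, and values per library follow their order. Wild-type columns are numbered M0, M1, M2 and M3, and the Lgr6-null columns lack M1 and end with M4.

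Depth ran from 7629968 reads in genes (Lgr6-null M4) to 21135173 (Lgr6-null M3). Lgr6 itself had a mean of 76.2 ± 19.2 normalized counts in Lgr6-null and 1287 ± 303 in wild-type (SD, n = 4), with all Lgr6-null libraries lower (two-sided exact permutation p = 0.0286, the smallest that 4 against 4 libraries can give). All 8 osteoblast markers examined fell, and their summed level was 1181140 to 1554880 in wild-type and 184714 to 259129 in Lgr6-null. Macrophage markers were abundant in cultures labelled as stromal cells: 9 of 12 rose and 0 fell, with a summed level of 259259 to 308041 in wild-type and 398252 to 600575 in Lgr6-null. The fibroblast and tendon sum was 16837 to 30016 in wild-type and 30394 to 47304 in Lgr6-null. Of its 6 markers, 2 were higher and 1 was lower. The low endothelial sum was 117 to 161 in wild-type and 50.9 to 72.1 in Lgr6-null, with 1 of 3 tested markers lower. By the calling rule given below, 13.0% of all genes tested rose and 12.7% fell. The endothelial share called, 33.3%, was near the 25.7% of all genes tested. In such bulk RNA, fewer cells of a type and less RNA per cell cannot be told apart. The part of these marker shifts in the results below was not tested.

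As background, MMPs are zinc-dependent proteases, secreted or held at the cell surface, that cut collagens, gelatin and other matrix proteins. They are made as inactive proenzymes whose prodomain must be removed, and TIMPs block their active sites. ADAMTS proteases trim procollagens and proteoglycans of the matrix, whereas ADAMTS-like proteins share their ancillary domains but lack the protease. In bone, collagenase made by osteoblast lineage cells takes part in matrix turnover.

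The families changed in both directions. A gene was tested if it reached a normalized count of 10 in at least 4 libraries, and it was called at a limma adjusted p below 0.05, Benjamini-Hochberg adjusted over all 14294 genes tested. Among the 37 members tested, 11 rose and 13 fell in Lgr6-null cells, together 64.9%, beside a background of 25.7% of all genes tested (13.0% higher and 12.7% lower). The members ran from -2.68 to 1.37 on the log2 scale, with a median log2 fold change of -0.20, beside 0.00 for all genes tested. On the recovered reads, edgeR called 11 members higher and 13 lower, where it called 26.2% of all genes, and DESeq2 called 13 and 15, where it called 28.7%. Changes of at least 2-fold were called in 11 members (29.7%) and in 7.32% of all genes tested. Members were chosen with earlier results of these data known, and Adamts3 passed the filter only through wild-type, where it was high. Adamts17 and Adamtsl2, also higher in wild-type, each reached 10 in 4 wild-type libraries but in only 1 Lgr6-null library. The numbers of calls therefore describe the tested members and carry no further weight. Of 16 MMP genes tested, 5 rose and 5 fell, and of 13 ADAMTS genes 3 rose and 7 fell. Of 5 ADAMTS-like genes, 2 rose and 0 fell, and of 3 TIMP genes 1 rose and 1 fell. After scaling all libraries to an equal total, 13 members were called higher and 12 lower, while all genes split into 2886 higher and 1281 lower instead of 1855 and 1821.

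**Figure D1:**
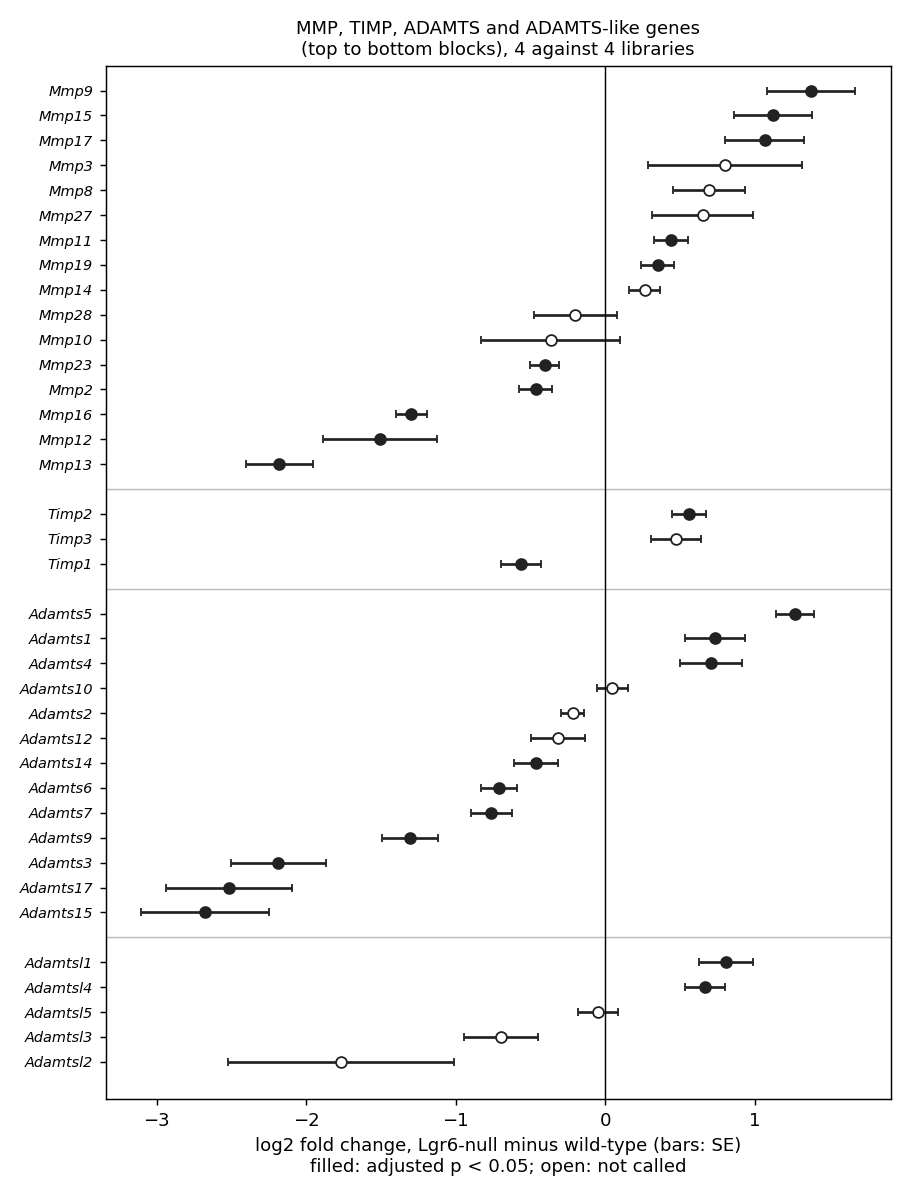
Log2 fold change (x axis, Lgr6-null minus wild-type, bars show the SE) of the 37 tested members, in blocks of MMP, TIMP, ADAMTS and ADAMTS-like genes; filled points were called. Mmp13 at -2.18 and Adamts15 at -2.68 are the lowest of their families, and Mmp9 at 1.37 and Adamts5 at 1.27 the highest.

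Mmp13, the main collagenase of rodent bone (ENSMUSG00000050578, chromosome 9), had by far the most reads of the MMP genes in wild-type and fell to 22.8% of its wild-type mean. It was at 53174, 55946, 69718 and 48428 normalized counts in the wild-type libraries and at 15492, 10365, 8554 and 17347 in the Lgr6-null libraries. The lowest wild-type library stood well above the highest Lgr6-null library. The log2 fold change was -2.18 (SE 0.22, limma adjusted p = 0.000141). Mmp8, the other collagenase, which is best known from neutrophils, was at 67.7, 56.8, 108 and 62.0 in wild-type and at 84.3, 113.9, 160.6 and 116.5 in Lgr6-null. The genotypes overlapped, and Mmp8 was not called (log2 fold change 0.69, SE 0.24, adjusted p = 0.0625). It was called without wild-type M2 (0.89, adjusted p = 0.0209) or without Lgr6-null M0 (0.84, adjusted p = 0.0421), and after scaling to an equal total (adjusted p = 0.0333). DESeq2 on the recovered reads (0.68, adjusted p = 0.0430) and limma with quantile normalization (0.78, adjusted p = 0.0358) called Mmp8 higher as well. Of 6 granulocyte markers, only S100a8 was high enough to be tested, without a call, and Elane had no read in wild-type. Their summed level was 21.8 to 54.4 in wild-type and 22.9 to 211 in Lgr6-null, highest in Lgr6-null M3, where Mmp8 was highest too, and their part in the Mmp8 level was not tested.

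Mmp13 lies at an end of a cluster of MMP genes on chromosome 9. Most of its tested neighbours were not called, as held for most genes tested, of which 25.7% were called. Going away from Mmp13, Mmp12 lies 71.9 kb off, Mmp3 173.3 kb, Mmp10 229.8 kb, Mmp8 285.9 kb, Mmp27 298.9 kb and Mmp20 355.7 kb. The cluster also holds Mmp1a, Mmp1b and Mmp7, which were not analysed here. In this cluster Mmp13 and Mmp12 were called, both lower. Mmp27, Mmp3 and Mmp10 were tested without a call, at log2 fold changes of 0.65 (SE 0.34), 0.80 (SE 0.52) and -0.37 (SE 0.46). Mmp20, the enamel protease, had 10 wild-type reads and 1 Lgr6-null read and was not tested.

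**Figure D2:**
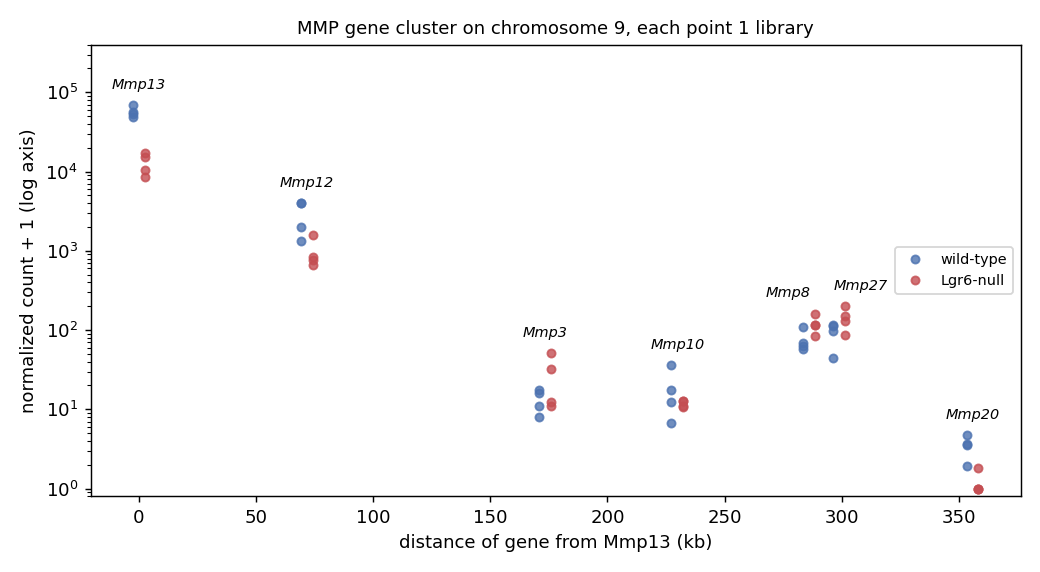
Normalized count + 1 (log axis) of 7 MMP genes in each library against the gene's distance from Mmp13 in kb, wild-type in blue and Lgr6-null in red. The genotypes separate at Mmp13 and overlap at Mmp12, Mmp3, Mmp10, Mmp8 and Mmp27, and Mmp20 holds few reads.

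The promoters of this cluster are shown because several of its genes hold the same short motif near the start while their RNA changed unequally. RefSeq windows of build GRCm38.p6, from 250 bases before to 50 bases after the start, were found for 28 of the 41 members. Capitals mark the AP-1 motif, searched as TGANTCA, which reads the same on the other strand, and the RUNX motif, searched as TGTGGT on both strands (ACCACA when reversed); the motifs did not overlap. Mmp13 (chr9:7272264-7272563, plus strand) held both, the AP-1 motif 35 bases and the RUNX motif 118 bases before the start. Mmp12 (chr9:7347124-7347423, from the later of its listed starts), Mmp3 (chr9:7445572-7445871) and Mmp10 (chr9:7502092-7502391), all on the plus strand, held the AP-1 motif 44, 46 and 63 bases before the start.
Mmp13: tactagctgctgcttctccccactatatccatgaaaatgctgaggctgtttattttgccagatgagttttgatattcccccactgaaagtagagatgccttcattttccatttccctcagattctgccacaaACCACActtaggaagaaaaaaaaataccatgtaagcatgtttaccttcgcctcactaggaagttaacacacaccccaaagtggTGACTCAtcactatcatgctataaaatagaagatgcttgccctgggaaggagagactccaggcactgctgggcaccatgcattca
Mmp12: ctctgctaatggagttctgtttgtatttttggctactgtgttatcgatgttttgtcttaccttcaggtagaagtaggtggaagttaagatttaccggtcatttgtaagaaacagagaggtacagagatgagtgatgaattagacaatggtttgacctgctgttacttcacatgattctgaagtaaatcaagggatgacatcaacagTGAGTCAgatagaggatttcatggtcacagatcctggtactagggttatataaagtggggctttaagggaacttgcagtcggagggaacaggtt
Mmp3: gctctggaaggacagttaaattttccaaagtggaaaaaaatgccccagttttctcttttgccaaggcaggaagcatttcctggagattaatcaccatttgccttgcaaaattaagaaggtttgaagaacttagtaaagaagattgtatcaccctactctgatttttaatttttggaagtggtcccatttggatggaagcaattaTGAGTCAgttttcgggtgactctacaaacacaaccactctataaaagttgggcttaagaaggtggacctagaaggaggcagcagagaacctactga
Mmp10: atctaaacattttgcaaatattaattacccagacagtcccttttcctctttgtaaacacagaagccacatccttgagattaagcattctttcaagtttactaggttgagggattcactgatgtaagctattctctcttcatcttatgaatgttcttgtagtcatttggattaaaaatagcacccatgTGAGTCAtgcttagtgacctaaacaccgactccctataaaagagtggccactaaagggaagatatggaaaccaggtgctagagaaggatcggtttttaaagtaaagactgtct

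The AP-1 letters were found for 5 of the 7 members in the chromosome 9 cluster, Mmp20 included and Mmp8 and Mmp27 not. They were found for 0 of the 21 matched members elsewhere. The window of the earlier start of Mmp12 did not hold them. The search took any base in the middle, and Mmp20 held TGAATCA, whereas Mmp13, Mmp12, Mmp3 and Mmp10 held G or C there. Among all 32851 promoter windows in the table, 7.81% held the AP-1 letters, 16.8% the RUNX letters and 1.42% both. Of 4 members with the RUNX letters, Mmp13, Mmp14, Mmp23 and Mmp27, only Mmp13 held both motifs. These matches describe the letters of the windows and are not evidence that a factor binds there.

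RNA of factors that bind such motifs, and of signals known to act on Mmp13, was examined as a list of 20 genes, 19 of them tested. Of these, 2 rose and 6 fell, 42.1% beside 25.7% of all genes tested, with a median log2 fold change of -0.16. Runx2, the osteoblast RUNX factor, was at 2130, 2275, 2011 and 2093 in wild-type and 874, 1244, 520 and 1077 in Lgr6-null (limma log2 fold change -1.27, SE 0.22, adjusted p = 0.00296). The AP-1 subunits Fos (0.12, SE 0.14) and Jun (0.24, SE 0.10) were not called, although Jun was without wild-type M2 (0.33, adjusted p = 0.0357) and after scaling to an equal total (0.34, adjusted p = 0.0413), whereas the AP-1 subunit Fosl1 fell (-0.79, SE 0.18). Pth1r, the receptor through which parathyroid hormone acts on osteoblasts, fell from 5560 ± 216 to 1061 ± 393 (SD, n = 4; limma log2 fold change -2.47, SE 0.23, adjusted p = 9.30e-05), and the osteoblast factor Sp7 fell by 2.08 (SE 0.25). The ETS factors parted, with Ets1 lower (-0.51, SE 0.08) and Ets2 higher (0.62, SE 0.10). The cytokine Il1b, which induces MMP genes in many cells, was the other rise (1.34, SE 0.36), with overlap between the genotypes through wild-type M0. Its call was lost without wild-type M1 (1.19, adjusted p = 0.0671) or M2 (1.08, adjusted p = 0.0543) and without Lgr6-null M0 (1.27, adjusted p = 0.0647) or M2 (1.30, adjusted p = 0.0502).

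The gelatinases went opposite ways. Mmp2, the gelatinase of mesenchymal cells, was at 9276, 10898, 9117 and 8723 in wild-type and at 6910, 6927, 5675 and 8104 in Lgr6-null. The genotypes did not overlap, which held for 29.1% of all genes tested, and Mmp2 fell by 0.47 on the log2 scale (SE 0.11, limma adjusted p = 0.0139). Mmp9, the gelatinase of osteoclasts and other myeloid cells, was far lower in level, at 21.3, 40.7, 45.3 and 63.3 in wild-type and at 128, 103, 84.0 and 109 in Lgr6-null. All Lgr6-null libraries were above all wild-type libraries, and the log2 fold change was 1.37 (SE 0.29, limma adjusted p = 0.00805), resting on 168 wild-type and 446 Lgr6-null reads. Beside this rise, macrophage markers were higher as given above, whereas of 5 osteoclast markers tested 0 rose and 3 fell. Of all genes tested, 13.0% rose and 12.7% fell. The summed osteoclast level over 7 genes was 3867 to 4915 in wild-type and 2223 to 2786 in Lgr6-null. The part of either cell type in the Mmp9 level was not tested.

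Mmp12, the elastase of macrophages, fell, while macrophage markers rose and 3 of 5 osteoclast markers tested fell. The part of either cell type in the Mmp12 level was not tested. Mmp12 was at 1343, 3976, 4029 and 2000 in wild-type and at 828, 1591, 657 and 756 in Lgr6-null. Wild-type M0 lay below Lgr6-null M2, so the genotypes overlapped, and the wild-type libraries spread widely. The log2 fold change was -1.51 (SE 0.38, limma adjusted p = 0.0169), and the call was lost without wild-type M1 (-1.30, adjusted p = 0.0510). The stromelysins Mmp3 and Mmp10 were near the filter in both genotypes, Mmp3 with 50 wild-type and 124 Lgr6-null reads and Mmp10 with 72 and 47.

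Among the membrane-type MMPs, the most abundant, Mmp14, was not called while scarcer relatives changed. Mmp14, a cell-surface collagenase that also activates the Mmp2 proenzyme, was at 9400, 8007, 7456 and 8844 in wild-type and at 10333, 10201, 8583 and 11400 in Lgr6-null (log2 fold change 0.26, SE 0.10, adjusted p = 0.0929). The genotypes overlapped through Lgr6-null M3, and without that library Mmp14 was called (0.34, adjusted p = 0.0269), as it was with sample weights (0.33, adjusted p = 0.0267). Mmp16, another transmembrane member, was at 352, 397, 302 and 357 in wild-type and at 134, 147, 137 and 151 in Lgr6-null. It fell in a tight pattern without overlap (log2 fold change -1.30, SE 0.10), with the smallest adjusted p of the 37 tested members (limma, 3.53e-05).

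Mmp15 and the lipid-anchored Mmp17 rose from low levels. Mmp15 was at 21.3, 21.8, 20.9 and 27.9 in wild-type and at 45.1, 40.2, 42.4 and 85.9 in Lgr6-null (limma log2 fold change 1.12, SE 0.26, adjusted p = 0.0119). Mmp17 was at 36.2, 48.3, 58.4 and 51.9 in wild-type and at 136, 79.5, 68.4 and 143 in Lgr6-null (limma log2 fold change 1.07, SE 0.27, adjusted p = 0.0159). Neither overlapped between the genotypes, and in both the shallow library M4 was the highest of Lgr6-null. The call of Mmp17 was lost narrowly without Lgr6-null M0 (0.93, adjusted p = 0.0502). Mmp25, the other lipid-anchored member, had 8 wild-type and 10 Lgr6-null reads and was not tested.

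Of the remaining MMPs, Mmp23 fell, Mmp11 and Mmp19 rose modestly, and Mmp28 was not called. Mmp23 was at 1979, 2145, 1900 and 1623 in wild-type and at 1474, 1413, 1270 and 1604 in Lgr6-null, separated only narrowly (limma log2 fold change -0.41, SE 0.10, adjusted p = 0.0136). Mmp11, known as a stromelysin of stromal cells, rose from 198 ± 9.26 to 270 ± 37.9 without overlap (SD, n = 4; log2 fold change 0.44, SE 0.11), and narrowly missed the threshold without wild-type M2 (0.41, adjusted p = 0.0506). Mmp19 was at 594 ± 73.8 and 756 ± 92.9, with overlap (limma log2 fold change 0.35, SE 0.11, adjusted p = 0.0426). Its call was lost without any single library other than wild-type M2 and Lgr6-null M2 (log2 fold changes 0.28 to 0.37, adjusted p = 0.0537 without Lgr6-null M4 to 0.114 without Lgr6-null M0). Mmp28, known as epilysin, was at 76.2 ± 20.6 and 68.0 ± 26.9.

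**Figure D3:**
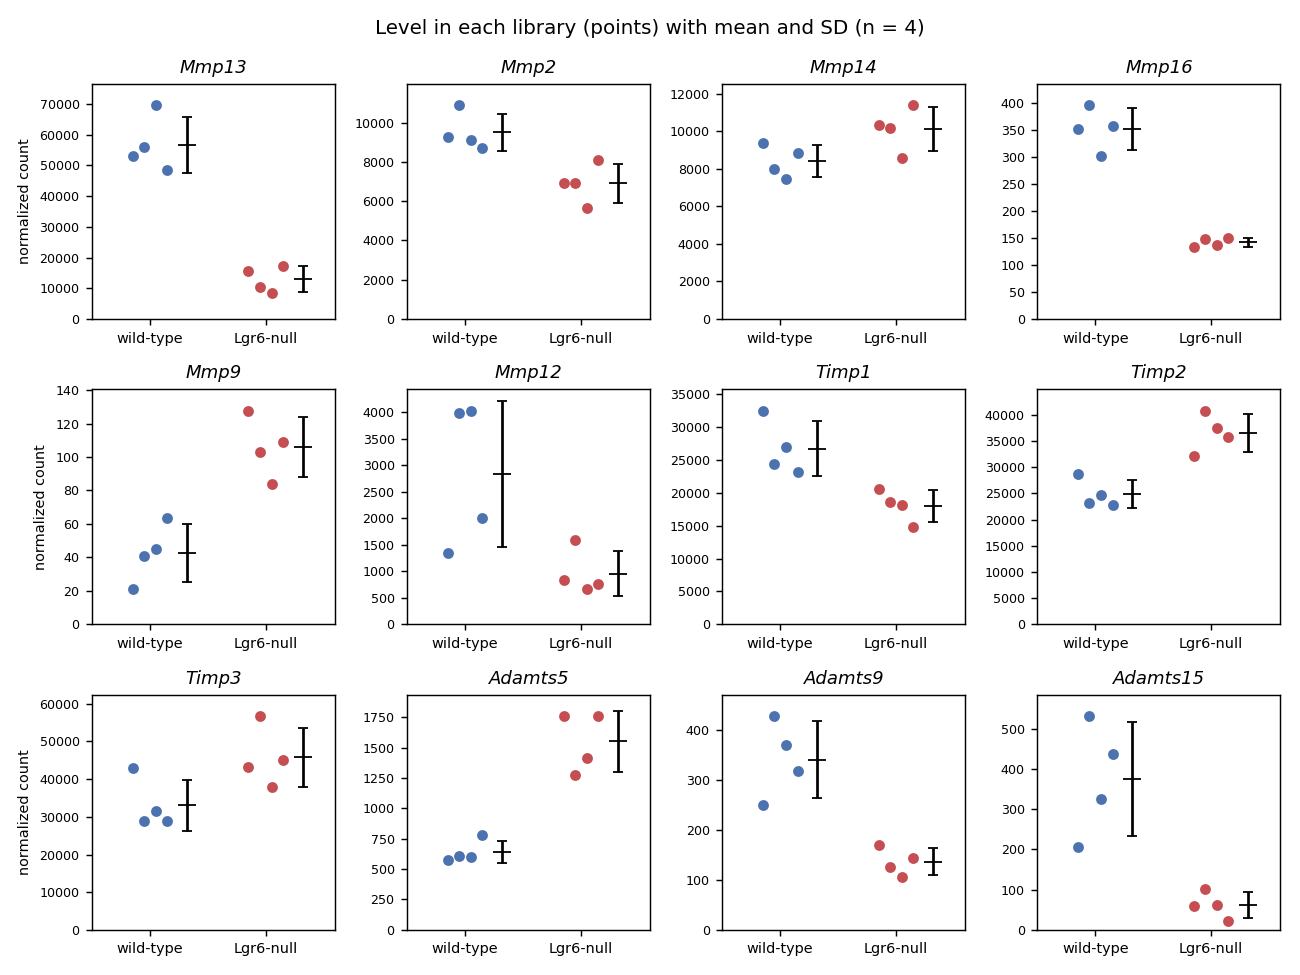
Normalized count (y axis, from 0) of 12 members in each wild-type (blue) and Lgr6-null (red) library, in the order of the library numbers, with the mean and SD beside the points. Mmp13, Mmp16, Adamts5, Adamts9 and Adamts15 separate without overlap, Timp1 and Timp2 part in opposite directions, and Mmp12, Mmp14 and Timp3 overlap.

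The TIMP genes did not move together. Timp1, an inducible inhibitor of most MMPs, was at 32515, 24358, 26910 and 23119 in wild-type and at 20538, 18659, 18138 and 14773 in Lgr6-null. All Lgr6-null libraries were lower (limma log2 fold change -0.57, SE 0.14, adjusted p = 0.0134). Timp2, which also takes part in the activation of Mmp2 by Mmp14, was at 28588, 23086, 24766 and 22783 in wild-type and at 32174, 40790.5, 37415 and 35654 in Lgr6-null. All Lgr6-null libraries were higher (limma log2 fold change 0.56, SE 0.11, adjusted p = 0.00612). Timp3, the matrix-bound inhibitor that also blocks several ADAMTS proteases, was at 42946, 28770.0, 31572 and 28929.9 in wild-type and at 43231, 56756, 37995 and 45020.1 in Lgr6-null. Wild-type M0 lay inside the Lgr6-null range, and Timp3 was not called (log2 fold change 0.47, SE 0.17, adjusted p = 0.0642). It was called without wild-type M0 (0.61, adjusted p = 0.0191) or without Lgr6-null M3 (0.56, adjusted p = 0.0420), and after scaling to an equal total (0.57, adjusted p = 0.0375). DESeq2 on the recovered reads (0.47, adjusted p = 0.0177) and limma with sample weights (0.55, adjusted p = 0.0219) called Timp3 higher as well.

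Levels of different genes were compared per kb of exon. In wild-type, the mean level per kb was highest for Timp1 (30096), followed by Mmp13 (21256), Timp2 (6367), Timp3 (4059), Mmp2 (2819), Mmp14 (1414) and Mmp23 (817). In Lgr6-null the order was Timp1 (20301), Timp2 (9371), Timp3 (5618), Mmp13 (4841), Mmp2 (2048), Mmp14 (1700) and Mmp23 (615), so that the mean of Mmp13 passed from below Timp1 alone to below all TIMP genes. In the single libraries Lgr6-null M0 and M4, Mmp13 was still above Timp3. The summed MMP level per kb was 23557 to 31862 in wild-type and 7537 to 12123 in Lgr6-null. Mmp13 made up 78.2% ± 2.49 of that sum in wild-type and 48.2% ± 6.18 in Lgr6-null (SD, n = 4). Without Mmp13 the sums overlapped, at 5440.1 to 6455 in wild-type and 4337 to 5633 in Lgr6-null.

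The summed TIMP level per kb overlapped between the genotypes, at 35435 to 49227 in wild-type and 31316 to 38451 in Lgr6-null, but its makeup did not. Timp1 was 73.5% to 74.8% of the TIMP sum in wild-type and 53.1% to 63.0% in Lgr6-null. The summed MMP level per summed TIMP level was 0.678 ± 0.116 in wild-type and 0.283 ± 0.0769 in Lgr6-null (SD, n = 4). Mmp2 per Mmp14 was 1.74 to 2.41 in wild-type and 1.17 to 1.26 in Lgr6-null. These sums and ratios describe RNA levels and were given no test.

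**Figure D4:**
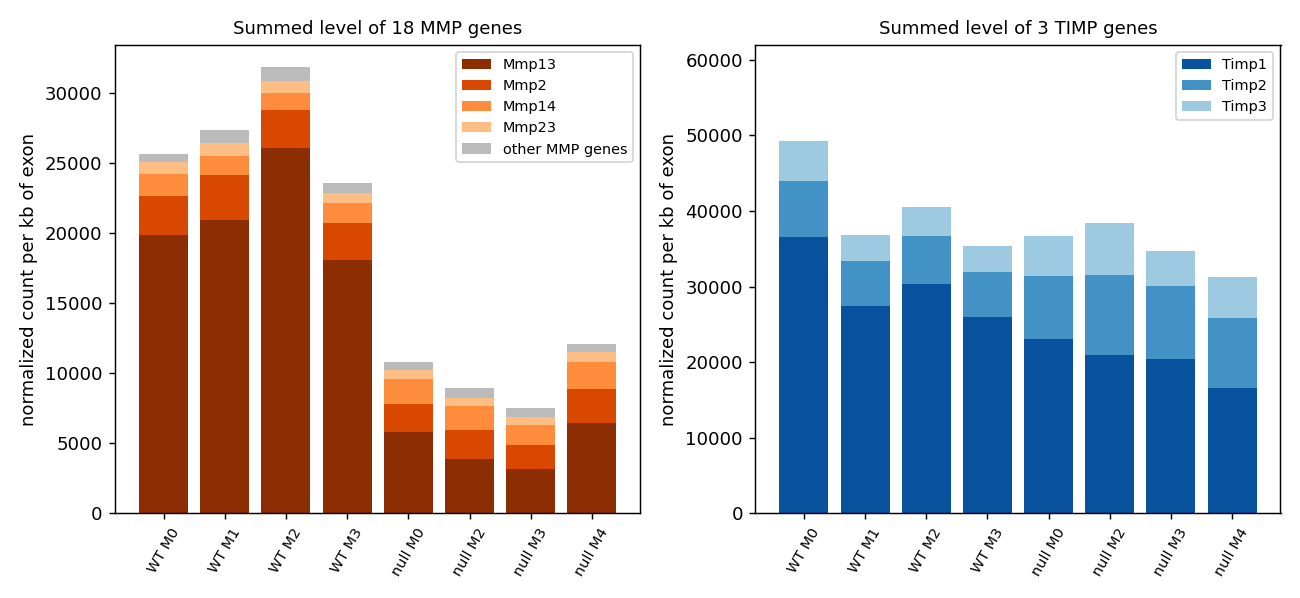
Summed normalized count per kb of exon (y axis, from 0) of the 18 MMP genes (left) and the 3 TIMP genes (right) in each library, coloured by gene. The MMP sum falls with Mmp13 from 23557 or more in wild-type to 12123 or less in Lgr6-null, while the TIMP sums overlap and hold a smaller share of Timp1.

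The proteoglycan-cleaving ADAMTS genes divided between rises and falls. All 5 tested were called, beside 25.7% of all genes tested, and the calls of Adamts1 and Adamts4 were lost without some single libraries. Adamts5, a major aggrecanase of mouse cartilage (chromosome 16), was at 578, 611, 601 and 779 in wild-type and at 1760.4, 1272, 1412 and 1760.3 in Lgr6-null. All Lgr6-null libraries were higher, and the log2 fold change was 1.27 (SE 0.13, limma adjusted p = 0.000144). Adamts1, a versican-cleaving protease that lies 53.1 kb from Adamts5 on the same strand, was at 348, 338, 460 and 566 in wild-type and at 765, 568, 585 and 926 in Lgr6-null. Its ranges nearly touched (limma log2 fold change 0.73, SE 0.20, adjusted p = 0.0229), and the call was lost without wild-type M0 (0.65, adjusted p = 0.0582), wild-type M1 (0.63, adjusted p = 0.0682) or Lgr6-null M0 (0.69, adjusted p = 0.0642).

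Adamts4, another aggrecanase, was at 257, 202, 208 and 268 in wild-type and at 433, 368, 249 and 525 in Lgr6-null. Lgr6-null M3 lay within the wild-type range (limma log2 fold change 0.71, SE 0.21, adjusted p = 0.0320). The call was lost without wild-type M1 (0.64, adjusted p = 0.0882) or M2 (0.66, adjusted p = 0.0810), and without Lgr6-null M0 (0.65, adjusted p = 0.0879), M2 (0.72, adjusted p = 0.0544) or M4 (0.55, adjusted p = 0.0639).

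Adamts15 and Adamts9, which also cut aggrecan or versican, fell. Adamts15 was at 206, 531, 324 and 438 in wild-type and at 60.1, 101, 61.7 and 22.9 in Lgr6-null, without overlap (limma log2 fold change -2.68, SE 0.43, adjusted p = 0.00169), and had the lowest log2 fold change of all tested members. Adamts9 was at 249, 429, 370 and 318 in wild-type and at 171, 126, 106 and 143 in Lgr6-null, again without overlap (limma log2 fold change -1.31, SE 0.19, adjusted p = 0.00103). Per kb, Adamts15 stood at 0.371 to 0.906 of the Adamts5 level in the wild-type libraries and at 0.0136 to 0.0829 of it in the Lgr6-null libraries. The summed level per kb of all 15 ADAMTS genes overlapped, at 998 to 1178 in wild-type and 971 to 1190.4 in Lgr6-null, with Adamts2 the largest part of it in both.

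The procollagen N-proteinases, which remove the amino-terminal propeptide of fibrillar procollagens, were led by Adamts2. It was at 4327, 4917, 4379.6 and 4424 in wild-type and at 4322, 3708, 4020.0 and 3490.0 in Lgr6-null. The libraries just failed to overlap, and Adamts2 was not called (log2 fold change -0.22, SE 0.08, adjusted p = 0.0684), although it was without Lgr6-null M0 (-0.27, adjusted p = 0.0397) and with quantile normalization (-0.29, adjusted p = 0.00715). DESeq2 on the recovered reads called Adamts2 lower as well (-0.22, adjusted p = 0.0429). Adamts3 was at 18.6, 31.2, 27.0 and 22.8 in wild-type and at 3.34, 3.35, 6.69 and 5.73 in Lgr6-null, with 102 and 20 reads (limma log2 fold change -2.19, SE 0.32, adjusted p = 0.00103). Adamts14 was at 553 ± 114 and 395 ± 41.4 with overlap (limma log2 fold change -0.46, SE 0.15, adjusted p = 0.0458). Its call was lost without any single library except wild-type M2 (adjusted p = 0.0525 without Lgr6-null M0 to 0.117 without wild-type M1), and after scaling to an equal total (-0.37, adjusted p = 0.0794).

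Of the proteases known to cut cartilage oligomeric matrix protein, Adamts7 fell from 122 ± 4.36 to 72.1 ± 11.2 without overlap (SD, n = 4; limma log2 fold change -0.76, SE 0.14, adjusted p = 0.00316). Adamts12 was at 1039 ± 194 and 842 ± 215 without a call (log2 fold change -0.32, SE 0.18). Among members linked to fibrillin microfibrils, Adamts17 was at 35.2, 115, 47.0 and 82.3 in wild-type and at 9.19, 20.1, 7.43 and 7.64 in Lgr6-null (limma log2 fold change -2.52, SE 0.42, adjusted p = 0.00226). Adamts6 fell without overlap as well (264 ± 32.1 to 161 ± 17.5; log2 fold change -0.71, SE 0.12), whereas their relative Adamts10 was at 729 ± 107 and 749 ± 43.8 (log2 fold change 0.05, SE 0.10). Adamts16 and Adamts18 were too low to be tested. Adamts16 had 12 wild-type and 62 Lgr6-null reads, 28 of the latter in the shallow library M4, and Adamts18 had 62 wild-type and 9 Lgr6-null reads.

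The ADAMTS-like genes, which encode matrix proteins without protease activity, held 2 rises. Adamtsl4, a fibrillin-1-binding protein, was at 1414, 957, 1207 and 877 in wild-type and at 1869, 1696, 1720.1 and 1667 in Lgr6-null. All Lgr6-null libraries were higher (limma log2 fold change 0.67, SE 0.13, adjusted p = 0.00603). Adamtsl1 rose from 121 ± 20.8 to 215 ± 46.3 without overlap (SD, n = 4; limma log2 fold change 0.81, SE 0.18, adjusted p = 0.0102). Adamtsl5 was at 677 ± 87.6 and 655 ± 105 (log2 fold change -0.05, SE 0.13), and Adamtsl2 had 78 wild-type and 32 Lgr6-null reads without a call (log2 fold change -1.77, SE 0.75). Adamtsl3 was at 212 ± 54.6 and 132 ± 44.7 without a call (log2 fold change -0.70, SE 0.25, adjusted p = 0.0668), but was called without wild-type M0 (-0.88, adjusted p = 0.0256) or without Lgr6-null M0 (-0.91, adjusted p = 0.0206). DESeq2 on the recovered reads called Adamtsl3 lower as well (-0.68, adjusted p = 0.0368).

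Substrates of ADAMTS proteases and partners of ADAMTS-like proteins changed in both directions. Of 17 tested, 4 rose and 6 fell, 58.8% beside 25.7% of all genes tested, with a median log2 fold change of -0.07. Aggrecan, Acan, the large cartilage proteoglycan, was at 70.5, 67.2, 108 and 72.2 in wild-type and at 0.835, 1.67, 2.97 and 0 in Lgr6-null, 328 against 7 reads. It fell by 5.23 on the log2 scale (SE 0.42, limma adjusted p = 3.91e-05); like Adamts3 it passed the filter through wild-type alone. Brevican, Bcan, was at 442 ± 67.8 and 56.3 ± 11.5 (log2 fold change -2.96, SE 0.17), and Ltbp1, which stores latent TGF-β in the matrix, fell by 1.36 (SE 0.12). Versican, Vcan, was at 1563, 1386, 1839 and 2324 in wild-type and at 4108, 3429, 2735 and 4189 in Lgr6-null, a rise of 1.03 (SE 0.18). Fbn1, the main fibrillin, rose by 0.96 (SE 0.16, limma adjusted p = 0.00188). Comp, the cartilage oligomeric matrix protein, fell by 1.93 (SE 0.32). The cartilage collagen Col2a1, also on this list, was not called (-0.07, SE 0.20). Of 4 chondrocyte markers tested, 0 rose and 1, Acan, fell. The summed chondrocyte level overlapped, at 5880 to 10498 in wild-type and 6394 to 9117 in Lgr6-null.

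Genes that activate, inhibit or clear metalloproteinases held falls alone among the calls. Of 15 tested, 0 rose and 5 fell (median log2 fold change -0.14). The share called, 33.3%, was near the 25.7% of all genes tested. Pcsk6, a proprotein convertase able to activate ADAMTS proenzymes, was at 3331, 5774, 3939.7 and 4826 in wild-type and at 324, 536, 299 and 157 in Lgr6-null (limma log2 fold change -3.86, SE 0.32, adjusted p = 4.36e-05). The convertase Pcsk5 fell by 1.31 (SE 0.20), while Furin, the ubiquitous convertase, was at -0.12 (SE 0.05) without a call. Bsg, also called the MMP inducer EMMPRIN, fell by 0.60 (SE 0.10), and the protease inhibitor Serpine2 fell by 0.53 (SE 0.11). The membrane inhibitor Reck (0.14, SE 0.17) and the clearance receptor Lrp1 (-0.14, SE 0.11) were not called. After scaling to an equal total, or without Lgr6-null M2, 1 gene of this list was called higher.

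Other metalloproteinases and the procollagen C-proteinase enhancers also divided, with 5 rises and 5 falls among 17 tested, 58.8% beside 25.7% of all genes tested, and a median log2 fold change of 0.06. The rises numbered 3 without wild-type M1 or Lgr6-null M0, and 7 without Lgr6-null M4 or after scaling to an equal total, while the falls numbered 5 in each case. Phex, an endopeptidase of osteocytes, fell from 2113 ± 576 to 90.1 ± 71.6 (SD, n = 4; log2 fold change -4.78, SE 0.42), and Pcolce2, an enhancer of procollagen C-proteinase, fell by 3.18 (SE 0.32). Adam12, a disintegrin metalloproteinase of mesenchymal cells, was at 1526, 2183, 1975 and 2223 in wild-type and at 470, 377, 329 and 586 in Lgr6-null (limma log2 fold change -2.18, SE 0.18, adjusted p = 4.36e-05). Ece1, the endothelin-converting enzyme, rose from 1985 ± 108 to 3325 ± 91.2 (log2 fold change 0.75, SE 0.06). Bmp1, the main procollagen C-proteinase, fell by 0.71 (SE 0.10), while its relative Tll1 rose by 1.43 (SE 0.25) from 28.5 ± 2.77 normalized counts.

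**Figure D5:**
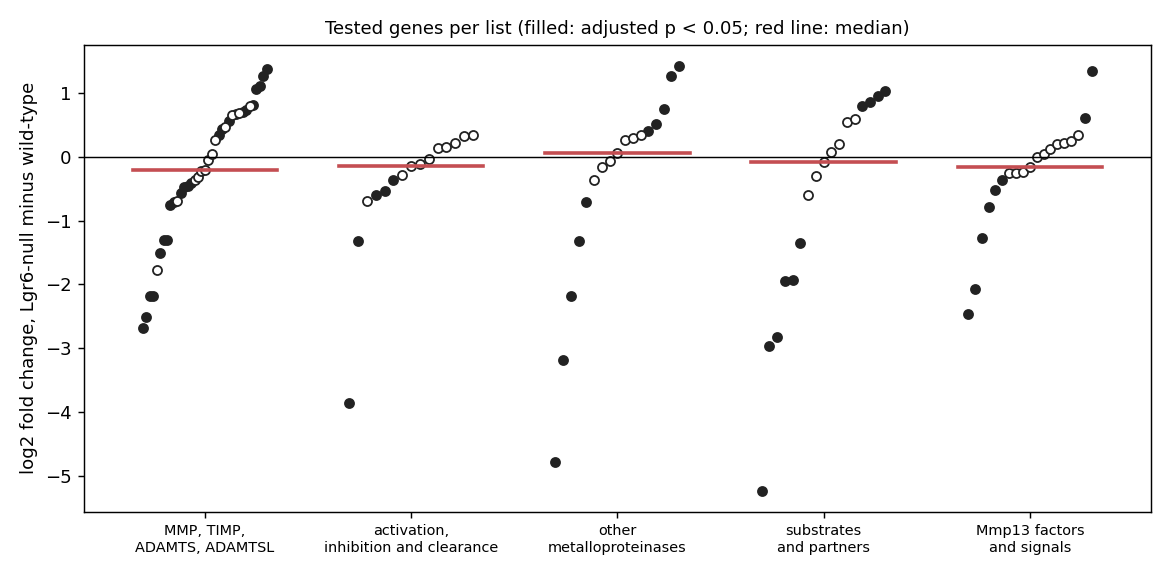
Log2 fold change (y axis, Lgr6-null minus wild-type) of each tested gene in the 4 families together and in 4 lists of related genes, with called genes filled and the list median in red. Every group holds called genes in both directions except the list of activation, inhibition and clearance, where the 5 called genes all fell.

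The counts of some members could include reads of overlapping genes on the opposite strand, since the strand setting of the counting is not given in the sources used here. Exons of Adamts7 and Tbc1d2b share 122 bases, those of Mmp19 and Tmem198b 789 bases, those of Adamts9 and A730049H05Rik 1381 bases, those of Mmp12 and Mmp1b 157 bases and those of Timp3 and Syn3 1733 bases. Tbc1d2b, at a mean of 3176 normalized counts over all libraries, was far above Adamts7, whose values are therefore uncertain.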

How the data were processed

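The values the authors deposited are a signal for 19460 genes and 8 libraries, normalized counts as the steps in each column show. The tools HTSeq 0.13.5, HISAT2 2.1.1 and DESeq2 and the build GRCm39 are listed in the submitters' processing notes, without their roles; the sources used here give neither the annotation nor the strand setting. Every column rose in steps worth 1 read (100% of values within 0.01 read), so whole reads were recovered. The lowest gene total was 11 reads. Symbols matched 19361 identifiers; symbols, exon lengths (union of exons), overlaps and distances came from GENCODE for GRCm38, and only RefSeq promoter coordinates of GRCm38.p6 are printed.

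From these values, log2(normalized count + 1) was fitted in limma 3.58.1 under R 4.3.3 with a mean-variance trend and no covariates. Fold changes are on that scale, which understates low genes. The fit was tested on simulated data. Alternatives were pseudocounts, filters, scalings, sample weights, edgeR 4.0.16 and DESeq2 1.42.0 on recovered reads, a block and each library left out. Members and lists were chosen with earlier results of these data known. Every member is accounted for; called members and the named main genes are given with values per library or mean ± SD, and from each list up to 4 called genes by smallest p. Further list genes were named after their values were seen. Within each genotype, no library was a copy of another (chi-square per degree of freedom at least 8.59).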

Additional observations from a re-analysis of the deposited data

Results flagged for a closer look

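In 76 groups of 4 libraries, made of the tested members and Lgr6 in each genotype, 5 had an extreme library set apart from the other 3 by a gap above Dixon's 95% critical value; chance gives about 1 in 20. Mmp15 was at 85.9 normalized counts in Lgr6-null M4, the shallowest library, and at 27.9 in wild-type M3, each the highest of its genotype. Adamts17 was at 20.1 in Lgr6-null M2, Adamts5 at 778.5 in wild-type M3 and Adamts2 at 4917 in wild-type M1, also the highest of their genotypes. Without the library concerned, Mmp15, Adamts17 and Adamts5 were still called and Adamts2 was still not called.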

How the results depend on the processing

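Over 19 alternatives, no called member changed direction, and 17 of the 24 called members were called in every alternative that tested them, apart from the block. The counts of called members were 8 to 12 higher and 11 to 14 lower with 1 library left out, the fewest rises without wild-type M1 or Lgr6-null M0, and those of all genes 1321 to 1839 higher and 1375 to 1769 lower. Scaling to the same total moved the rises among all genes from 1855 to 2886. Log2 fold changes of members that were not called turned for Adamtsl5 (0.042 with scaling to the same total; -0.149 to 0.062 with 1 library left out, positive without Lgr6-null M0), Adamts10 (-0.016 to 0.125, negative without wild-type M0 or M2) and Mmp10 (-0.760 to 0.053, positive without wild-type M0); the cause was not tested. The column numbers shared by the genotypes gave no sign of pairing: deviations of same-numbered libraries correlated at -0.0096, -0.117 and 0.0267. Other pairs ran from -0.1145 to 0.127, and the shared numbers are too few to decide whether libraries were paired. With the column numbers as a replicate block, which leaves fewer degrees of freedom, 3 members were called higher and 10 lower, and 937 and 1021 of all genes. Of the 24 called members, 12 kept the call with the block. Mmp9 (limma adjusted p = 0.0825), Timp1 (0.0545) and Timp2 (0.0966) were among those that lost it. The rises with the block included Mmp27 (0.82, limma adjusted p = 0.0431), which the main fit did not call. edgeR called 11 members higher and 13 lower, and DESeq2 13 and 15. Low members (Mmp3, Mmp10, Mmp20, Mmp25, Adamts16, Adamts18 and Adamtsl2) rest on few reads.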
